A study of Mus musculus with 6 samples.

Results

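A group of 10 genes whose proteins decide how long cytokine mRNAs last were followed in mouse eosinophils exposed to the alarmin cytokine IL-33. They were picked by symbol from a table of 23420 genes, and all 10 were in it: Zc3h12a, Zc3h12c and Zc3h12d of the Regnase family, Zfp36, Zfp36l1 and Zfp36l2 of the tristetraprolin family, the roquin genes Rc3h1 and Rc3h2, Arid5a, and Elavl1, which encodes HuR. Wild-type eosinophils had been grown from mouse bone marrow, first in stem cell factor and FLT3 ligand at 100 ng/mL each and then in IL-5 at 20 ng/mL, and dead cells were removed on day 14. RNA was sequenced after rRNA depletion with a directional kit, in 3 libraries of cells that received 2.5 ng/mL IL-33 during 3 hours and 3 libraries of cells without it, labelled PBS. Both groups thus shared the genotype, the culture and IL-5, and the cells stand for cultured rather than tissue eosinophils. Since nothing in the labels ties the libraries to different animals or dishes, the p-values cover only library-to-library spread, which may be technical.

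Cytokine mRNAs are short-lived because proteins bind their 3′ untranslated regions (UTRs). Regnase-1 is an RNase that cuts stem-loops, tristetraprolin and its relatives bind AU-rich elements and bring in the CCR4-NOT deadenylase, and roquins bind stem-loops and recruit the same complex. Arid5a and HuR are known for the opposite action, since they protect mRNAs such as that of IL-6 from decay. In macrophages and T cells, loss of Regnase-1, tristetraprolin or Roquin-1 leads to excess cytokine.

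The mRNAs of the tristetraprolin family carry the element that these proteins bind. A search of the annotated main transcript of each gene (GENCODE M21, GRCm38) for the nonamer TTATTTATT found 1 match in the 3′ UTR of each of the 3 family members, shown here with 10 bases on either side, 5′ to 3′ on the transcript strand, and the nonamer in capitals. A match is a description of the letters and not a proven site. One of 5 overlapping matches in Tnf, the textbook target of tristetraprolin, is given for comparison.
Zfp36 (chr7:28376951-28376979, minus strand): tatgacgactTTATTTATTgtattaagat
Zfp36l1 (chr12:80108167-80108195, minus strand): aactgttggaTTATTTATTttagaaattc
Zfp36l2 (chr17:84184914-84184942, minus strand): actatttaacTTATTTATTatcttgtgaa
Tnf (chr17:35199678-35199706, minus strand): tatttattatTTATTTATTatttatttat

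The nonamer was present in 766 of 9965 tested genes that had a 3′ UTR, 7.69%. Among the regulators it also occurred once in Rc3h1 and in Rc3h2 and 8 times, partly overlapping, in Elavl1, and it was not found in the 3 Regnase family genes or in Arid5a. The share of 7.69% takes no account of length, and a longer 3′ UTR has more room for a match. The median 3′ UTR of the tested genes had 1025 bases, against 7181 in Rc3h1, 5160 in Rc3h2, 4218 in Elavl1, 1835 in Zfp36l1, 1822 in Zfp36l2 and 774 in Zfp36. The shorter pentamer ATTTA, which lies inside the nonamer, was counted per kilobase of 3′ UTR, with a median of 1.26 over the tested genes. It stood at 4.90 in Zfp36l1, 4.84 in Rc3h2, 4.03 in Elavl1, 3.88 in Zfp36, 3.50 in Zc3h12a, 3.45 in Zc3h12c, 2.79 in Rc3h1 and 2.74 in Zfp36l2. Only Zc3h12d at 0.86 and Arid5a at 0.72 lay below the median among the 10.

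Depth differed between libraries outside Rn45s, which stands for precursor ribosomal RNA. Values are the authors' normalized counts, each gene's reads divided by one factor per library. Whole reads recovered from them numbered 9362650 to 10785521 per IL-33 library and 8218303 to 8981930 per PBS library. Rn45s held 24.3% of all reads in IL-33 replicate 1, 59.6% in replicate 2 and 54.8% in replicate 3, and 13.7% to 24.8% in PBS libraries, which left 7129435, 4355586 and 4229504 other reads in IL-33 replicates 1, 2 and 3 and 6592044 to 7091546 in PBS libraries. IL-33 replicate 1 correlated with IL-33 replicates 2 and 3 at Pearson r of 0.9515 and 0.9225 across genes, against 0.9842 to 0.9875 between PBS libraries. With PBS replicates 1, 2 and 3 its r was 0.9411, 0.9144 and 0.9167. These values are a description in which genes are not independent. Of the fixed markers of eosinophils, all 10 were detected, and 9 fell at an adjusted p under 0.05 (limma), against 14.4% of all tested genes. Among the 9, the groups overlapped for Ccr3 (1882 in IL-33 replicate 1, 1810 in PBS replicate 2). The summed level of the 10 was 18843 to 31334 in IL-33 libraries and 51552 to 62607 in PBS libraries.

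Markers of other cells were present at lower sums. Neutrophil markers summed to 2273 to 2993 in IL-33 libraries and 2826 to 3526 in PBS libraries, and monocyte and macrophage markers to 4671 to 5337 in IL-33 libraries and 2342 to 2610 in PBS libraries. Mast cell and basophil markers summed to 71.0 to 99.99 in IL-33 libraries and 97.1 to 213 in PBS libraries, lymphoid markers to 33.9 to 55.7 in IL-33 libraries and 53.1 to 65.7 in PBS libraries, and dendritic cell markers to 47.7 to 84.7 in IL-33 libraries and 38.6 to 46.6 in PBS libraries. Of the neutrophil list, 9 of 10 genes were found in the table, and none of those 9 was at 0 in every library. The monocyte and macrophage sum was mostly Csf1r, the receptor for the growth factor CSF-1, at 3980 to 4934 in IL-33 libraries and 1461 to 1732 in PBS libraries, while C1qa, C1qb and C1qc did not exceed 13.6 in any library. Ly6c2 of the monocyte and macrophage list went the other way from Csf1r. It stood at 190 to 612 in IL-33 libraries and 607 to 772 in PBS libraries, and was not called (log2 fold change −0.84, adjusted p = 0.132, limma). The mast cell protease genes Mcpt4 and Mcpt1 and the natural killer cell gene Ncr1 were at 0 in all 6 libraries. In bulk RNA, fewer cells of a type and less RNA per cell cannot be told apart, and the part of cell composition in the changes below was not tested.

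Both Regnase genes that could be tested were far higher after IL-33, and Zc3h12a had the largest change of the 9 regulators tested. Tests used limma on log2(normalized count + 1), with Benjamini-Hochberg adjustment over the 10544 genes that were tested, and genes count as called where the adjusted p fell under 0.05. Fold changes on this scale understate those of low genes. By this test 17.4% of all tested genes were higher and 14.4% lower, 31.9% in all. Of the 10 regulators, 9 passed the filter on low values, 5 were called higher, 0 lower and 4 were not called, and 5 had an unadjusted p under 0.05. With tests on the recovered reads, 5 were higher and 0 lower by edgeR and by DESeq2. When IL-33 replicate 2 was left out, or PBS replicate 2, or PBS replicate 3, 2 regulators were called higher each time, namely Zc3h12a and Zc3h12c. In 6 of the 9 the libraries of the groups did not overlap, all of them higher after IL-33, against 25.5% of all tested genes that did not overlap and were higher, 24.7% that were lower, and 50.2% in either direction.

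Zc3h12a encodes Regnase-1, the RNase that cuts stem-loops in mRNAs such as Il6 (chr4:125118423-125127840, GRCm38, minus strand). It had normalized counts of 1877, 1999 and 2447 in IL-33 replicates 1, 2 and 3, against 163, 143 and 147 in PBS replicates 1, 2 and 3. Every IL-33 library stood far above every PBS library, and the spread within each group was small. The change on the log2 scale, 3.79 (SE 0.17, adjusted p = 1.96e-05, limma), was the 36th largest of all tested genes, a 13.8-fold difference. Zc3h12a was called in all 19 alternative fits, at log2 fold changes between 2.75 and 3.87.

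Zc3h12c encodes Regnase-3, a related RNase best described in myeloid cells (chr9:52111344-52168572, minus strand). Its counts were 4546, 2038 and 1651 in IL-33 replicates 1, 2 and 3, against 624, 377 and 386 in PBS replicates 1, 2 and 3. The groups did not overlap, but IL-33 replicate 1 was 2.75 times the lowest IL-33 library, and PBS replicate 1 was also the highest of its group. The log2 fold change was 2.46 (SE 0.38, adjusted p = 0.00322, limma), a 5.51-fold difference. It was called in 18 of 19 alternative fits, the exception being libraries scaled to equal totals (1.42, adjusted p = 0.0571, limma).

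Zc3h12d, which encodes Regnase-4, an RNase described mainly in lymphocytes (chr10:7832470-7870396, plus strand), was near the limit of detection. It had 1, 4 and 2 reads in IL-33 replicates 1, 2 and 3, against 9, 8 and 12 reads in PBS replicates 1, 2 and 3, which are normalized counts of 0.90, 6.15 and 3.39 in IL-33 libraries and 6.99, 5.82 and 8.39 in PBS libraries. The groups overlapped at this depth, and the gene was not tested because it lay under the filter of 10 normalized counts in 3 libraries. Zc3h12b, the remaining gene of the family, was also under the filter, at a mean of 7.88 in IL-33 libraries and 3.98 in PBS libraries.

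The promoter windows of the 2 Regnase genes that rose are shown because both were higher after IL-33, though with different library orders, from RefSeq (GRCm38.p6), 250 bases before to 50 bases after the annotated start, 5′ to 3′ on the gene's strand. Capitals mark matches, on either strand, to the kappa-B consensus, the binding motif of NF-kB, to the AP-1 motif TGANTCA or to the cAMP response element TGACGTCA.
Zc3h12a (chr4:125127832-125128131, minus strand): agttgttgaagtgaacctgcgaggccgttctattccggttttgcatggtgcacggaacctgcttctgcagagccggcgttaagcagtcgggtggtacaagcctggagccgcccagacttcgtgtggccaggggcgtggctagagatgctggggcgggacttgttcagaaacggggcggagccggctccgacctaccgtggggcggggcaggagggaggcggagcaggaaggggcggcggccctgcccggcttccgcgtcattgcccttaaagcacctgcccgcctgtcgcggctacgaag
Zc3h12c (chr9:52168357-52168656, minus strand): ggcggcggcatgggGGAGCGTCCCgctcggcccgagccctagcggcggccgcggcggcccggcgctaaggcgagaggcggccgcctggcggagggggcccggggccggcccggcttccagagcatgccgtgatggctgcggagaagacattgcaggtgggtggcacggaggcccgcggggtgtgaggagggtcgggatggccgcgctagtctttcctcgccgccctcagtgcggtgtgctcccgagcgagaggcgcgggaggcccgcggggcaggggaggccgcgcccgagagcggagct

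The Zc3h12c window shown held 1 kappa-B match, from −236 to −227 relative to the start, and the Zc3h12a window held none of the 3 motifs. Zc3h12c has another annotated start, whose window (chr9:52149314-52149613) is not shown and held none of them either. Among all 32851 promoter windows of the table, 8.46% held a kappa-B match, 7.81% TGANTCA and 1.79% TGACGTCA. TGANTCA also occurred once in the windows of Rc3h1, from −133 to −127, and Zfp36l1, from −129 to −123. No match was found in the windows of Zfp36, Rc3h2, Arid5a, Elavl1, Zc3h12d or the other start of Zc3h12c, and Zfp36l2 is named only. The absence of these letters from a window of 300 bases says nothing of more distant sites.

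**Figure D1:**
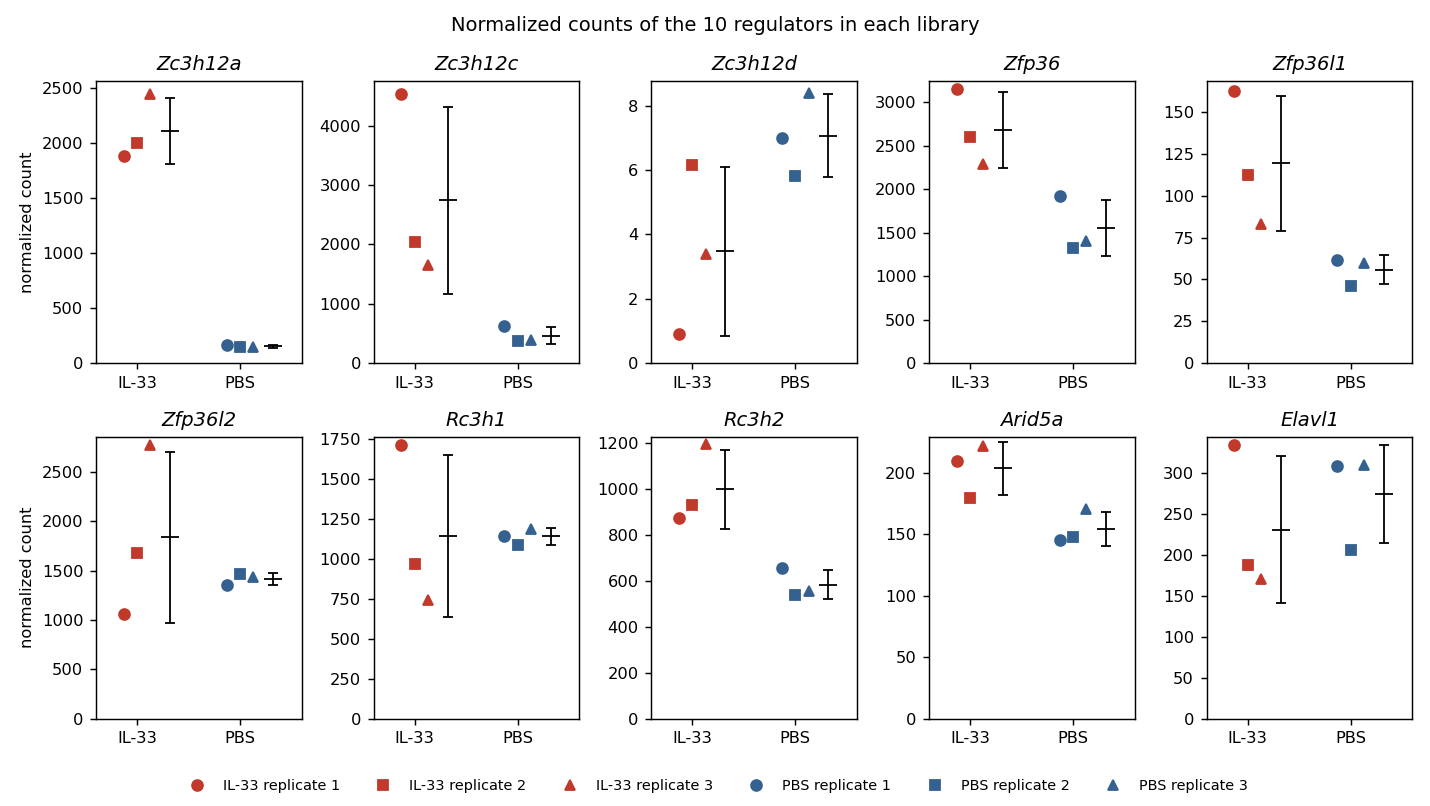
Normalized count of each regulator (vertical axis, starting at 0) in each library, with IL-33 on the left and PBS on the right of each panel. Points are libraries, with a symbol for each replicate number, and the black bar is the mean ± SD of 3 libraries. Zc3h12a at 1877 to 2447 after IL-33 and 143 to 163 in PBS is the clearest separation, whereas the IL-33 libraries of Zfp36l2 and Rc3h1 lie on both sides of the PBS libraries.

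In the tristetraprolin family, 2 genes were higher after IL-33 with the deposited scaling, and the third differed between libraries. Neither of the 2 was called with library totals made equal, whether Rn45s was counted or left out. With Rn45s left out, the log2 fold change was 0.37 for Zfp36 (adjusted p = 0.184) and 0.62 for Zfp36l1 (adjusted p = 0.132, both limma). Zfp36, which encodes tristetraprolin itself (chr7:28376784-28380253, minus strand), had normalized counts of 3145, 2599 and 2285 in IL-33 replicates 1, 2 and 3, against 1923, 1327 and 1404 in PBS replicates 1, 2 and 3. All 3 IL-33 libraries exceeded all PBS libraries, from an already high PBS level. The log2 fold change was 0.79 (SE 0.20, adjusted p = 0.0211, limma), or 1.73-fold. It was not called without IL-33 replicate 2 (log2 fold change 0.81, adjusted p = 0.0704), without PBS replicate 2 (0.69, adjusted p = 0.101) and without PBS replicate 3 (0.73, adjusted p = 0.102, all limma). An antisense gene, Gm44710, overlaps 3.60% of its exonic bases.

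Zfp36l1, a paralog known from early B and T cell development (chr12:80107754-80113013, minus strand), was expressed at a much lower level. It had 163, 112 and 83.0 normalized counts in IL-33 replicates 1, 2 and 3, against 61.4, 45.8 and 60.1 in PBS replicates 1, 2 and 3. The groups did not overlap, and IL-33 replicate 1 was again the highest. The log2 fold change was 1.04 (SE 0.29, adjusted p = 0.0276, limma), or 2.06-fold. The call was lost without IL-33 replicate 2 (1.06, adjusted p = 0.0796), without PBS replicate 1 (1.12, adjusted p = 0.0689), without PBS replicate 2 (0.91, adjusted p = 0.114) and without PBS replicate 3 (1.10, adjusted p = 0.0883, all limma). Of its exonic bases, 55.9% overlap Gm26669, a non-coding gene on the opposite strand, and although the kit keeps strand, no source used here says whether reads were counted by strand.

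Zfp36l2, the third paralog, known for its role in blood stem cells and thymocytes (chr17:84183931-84187947, minus strand), had 1065, 1681 and 2771 normalized counts in IL-33 replicates 1, 2 and 3, against 1351, 1466 and 1439 in PBS replicates 1, 2 and 3. IL-33 replicate 1 lay below every PBS library and the other two lay above them. With all libraries it was not called (log2 fold change 0.27, SE 0.31, adjusted p = 0.523, limma). Without IL-33 replicate 1 it was called higher (0.61, adjusted p = 0.0171, limma), whereas IL-33 replicate 1 by itself differed from the PBS mean by −0.41 on the log2 scale, given as a description of 1 library.

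Of the roquin genes, Rc3h2 was higher after IL-33 with the deposited scaling, and Rc3h1 was not called. With library totals made equal Rc3h2 was not called either, whether Rn45s was counted or left out. With Rn45s left out its log2 fold change was 0.34 (adjusted p = 0.121, limma). Rc3h2, which encodes Roquin-2 (chr2:37370069-37422903, minus strand), had normalized counts of 871, 929 and 1193 in IL-33 replicates 1, 2 and 3, against 654, 537 and 556 in PBS replicates 1, 2 and 3. The groups were well apart, with the highest value in IL-33 replicate 3. The log2 fold change was 0.77 (SE 0.18, adjusted p = 0.0168, limma), or 1.70-fold. It was not called without IL-33 replicate 2 (0.81, adjusted p = 0.0531), without PBS replicate 2 (0.71, adjusted p = 0.0866), without PBS replicate 3 (0.74, adjusted p = 0.0864) or with the Rn45s share as a covariate (0.58, adjusted p = 0.128, all limma).

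Rc3h1, which encodes Roquin-1, the protein mutated in the sanroque mouse (chr1:160906418-160974978, plus strand), had 1713, 969 and 742 normalized counts in IL-33 replicates 1, 2 and 3, against 1145, 1088 and 1190 in PBS replicates 1, 2 and 3. Here IL-33 replicate 1 was above all PBS libraries and IL-33 replicates 2 and 3 were below them, the mirror image of Zfp36l2. The group means were nearly equal, at 1141 ± 508 after IL-33 and 1141 ± 50.6 in PBS (SD, n = 3 each). The estimated change was −0.09 (log2, SE 0.28, adjusted p = 0.827, limma). Without IL-33 replicate 1 the gene was called lower (−0.43, adjusted p = 0.0307, limma), and IL-33 replicate 1 by itself differed from the PBS mean by 0.59 on the log2 scale, again a description of 1 library.

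The genes of both stabilising proteins were not called. Arid5a, which encodes the protein that shields the Il6 mRNA from Regnase-1 (chr1:36307733-36324029, plus strand), had normalized counts of 209, 179.9 and 222 in IL-33 replicates 1, 2 and 3, against 145, 148 and 171 in PBS replicates 1, 2 and 3. Its groups did not overlap, but the difference was small (log2 fold change 0.40, SE 0.18, adjusted p = 0.13, limma), and none of the 19 alternative fits called it. Elavl1 (chr8:4285382-4325413, minus strand) had 334, 188 and 171 normalized counts in IL-33 replicates 1, 2 and 3, against 309, 206 and 310.3 in PBS replicates 1, 2 and 3. The groups overlapped, since IL-33 replicate 1 was the highest of all 6 libraries, and the log2 fold change was −0.29 (SE 0.30, adjusted p = 0.463, limma). Without IL-33 replicate 1 Elavl1 was called lower (−0.59, adjusted p = 0.0287, limma).

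**Figure D2:**
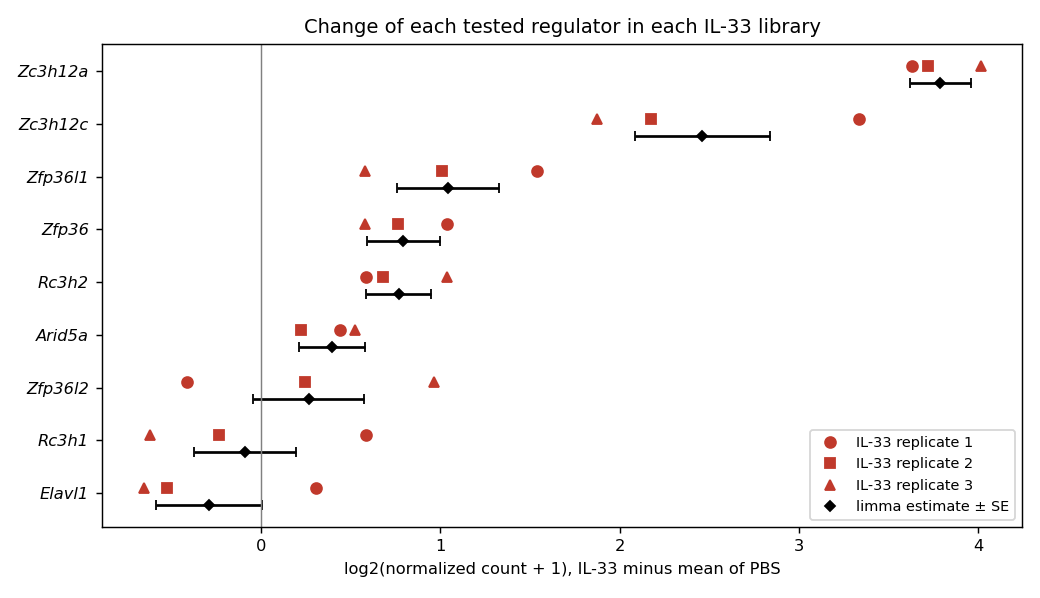
Difference of each IL-33 library from the mean of the 3 PBS libraries on the log2(normalized count + 1) scale (horizontal axis) for the 9 regulators tested, with a symbol for each replicate number, and the limma estimate ± SE as black diamonds. IL-33 replicate 1 is at the high end for Zc3h12c (3.33), Zfp36l1 (1.54) and Rc3h1 (0.59) and at the low end for Zc3h12a (3.63), Zfp36l2 (−0.41) and Rc3h2 (0.59).

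The IL-33 libraries thus fell into an order that differed between the genes. IL-33 replicate 1 had the highest IL-33 value and IL-33 replicate 3 the lowest for Zc3h12c, Zfp36, Zfp36l1, Rc3h1 and Elavl1. For Zc3h12a, Zfp36l2 and Rc3h2 the order was the opposite, and for Arid5a IL-33 replicate 3 was highest and IL-33 replicate 2 lowest. The highest over the lowest IL-33 value was 1.30 for Zc3h12a, 1.37 for Rc3h2, 1.38 for Zfp36, 1.95 for Elavl1, 1.96 for Zfp36l1, 2.31 for Rc3h1, 2.60 for Zfp36l2 and 2.75 for Zc3h12c. Among PBS libraries the same ratio lay between 1.08 and 1.66 for the 9 genes tested. The Rn45s share of IL-33 replicate 1, 24.3%, lay within the PBS range, unlike that of IL-33 replicates 2 and 3. With the Rn45s share as a covariate in the limma fit, the log2 fold change was −0.38 for Zfp36l2 (adjusted p = 0.466), 0.61 for Rc3h1 (adjusted p = 0.132) and 0.38 for Elavl1 (adjusted p = 0.417), none of them called, and 4 regulators stayed higher. Because the share largely follows the treatment, a fit to 6 libraries cannot separate it from IL-33. Its group effect leans on IL-33 replicate 1.

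Per kilobase of annotated exon, which allows levels of different genes to be compared, Zfp36 had the highest mean of the 10 mRNAs in both groups. It averaged 771 ± 125 normalized counts per kilobase after IL-33 and 447 ± 93.4 in PBS (SD, n = 3 each). Zc3h12a came next after IL-33, at 731 ± 104 per kilobase against 52.3 ± 3.76 in PBS, where it was the fifth. Measured against all tested genes with an annotated length, this placed Zc3h12a at the 96.5th percentile after IL-33 and at the 61.7th in PBS. The IL-33 ranges of Zc3h12a and of Zfp36l2 each overlapped that of Zfp36, so the order of these genes after IL-33 is not resolved. In PBS replicates 2 and 3, Zfp36l2 (415 and 408) stood above Zfp36 (382 and 405).

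After IL-33 the further order of levels per kilobase was Zfp36l2 (521 ± 245), Zc3h12c (401 ± 230), Rc3h1 (101 ± 44.9), Rc3h2 (50.8 ± 8.75), Zfp36l1 (39.9 ± 13.5), Elavl1 (22.3 ± 8.68), Arid5a (16.3 ± 1.72) and Zc3h12d (0.85 ± 0.64). In PBS it was Zfp36l2 (402 ± 17.0) after Zfp36, then Rc3h1 (101 ± 4.48), Zc3h12c (67.6 ± 20.5), Zc3h12a, Rc3h2 (29.7 ± 3.19), Elavl1 (26.5 ± 5.78), Zfp36l1 (18.7 ± 2.88), Arid5a (12.3 ± 1.11) and Zc3h12d (1.73 ± 0.31). After IL-33 the ranges of Zc3h12a and Zfp36l2, of Zfp36l2 and Zc3h12c, of Rc3h2 and Zfp36l1, of Zfp36l1 and Elavl1, and of Elavl1 and Arid5a also overlapped. In PBS the ranges of Zfp36 and Zfp36l2 overlapped, as did those of Zc3h12c and Zc3h12a, of Rc3h2 and Elavl1, and of Elavl1 and Zfp36l1. Compared within libraries, Zc3h12c still stood above Zc3h12a, and Elavl1 above Zfp36l1, in every PBS library. Likewise Zc3h12a stood above Zfp36l2, and Zfp36l1 above Elavl1, in every IL-33 library. For the other overlapping neighbours the order differed between libraries of a group. Per kilobase of the main transcript in place of all exons, Zc3h12a was the sixth in PBS, behind Rc3h2, and the levels of Rc3h2 (113 after IL-33, 66.2 in PBS) and Arid5a (43.9 after IL-33, 33.3 in PBS) were over 2 times as high. After IL-33, Rc3h2 then stood above Rc3h1 (104), and Arid5a above Elavl1 (40.2) and Zfp36l1 (39.9). The places of Rc3h2 and Arid5a, and the order of Elavl1 and Zfp36l1 after IL-33, therefore depend on the length used.

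**Figure D3:**
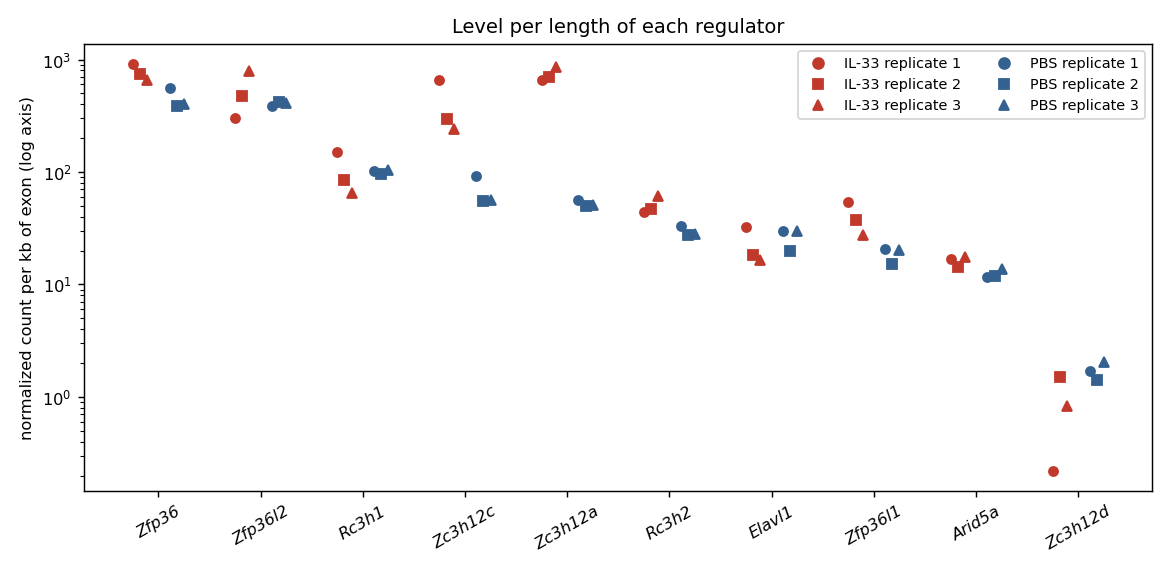
Normalized count per kilobase of exon (vertical log axis) of each regulator in each library, ordered by the PBS mean, with IL-33 libraries left of PBS libraries and a symbol for each replicate number. Zc3h12a stands at 52.3 per kilobase in PBS, between Zc3h12c and Rc3h2, and at 731 after IL-33, level with Zfp36.

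The summed level of a family per kilobase differed most in the Regnase genes. Zc3h12a, Zc3h12c and Zc3h12d together reached 1133 ± 165 after IL-33 and 122 ± 24.2 in PBS, a ratio of 9.32. The tristetraprolin family had a sum of 1332 ± 120.4 after IL-33 and 868 ± 78.4 in PBS, a ratio of 1.54, and both roquins together 152 ± 38.3 after IL-33 and 131 ± 6.04 in PBS, a ratio of 1.16 (SD, n = 3 each). The roquin sums overlapped, at 196, 133 and 126 in IL-33 replicates 1, 2 and 3, against 135, 124 and 134 in PBS replicates 1, 2 and 3. All these ratios are for the deposited scaling. Zc3h12a made up 49.5%, 69.9% and 77.8% of the Regnase sum in IL-33 replicates 1, 2 and 3, against 37.8%, 46.7% and 46.5% in PBS replicates 1, 2 and 3. Rc3h2 made up 22.7%, 35.6% and 48.1% of the roquin sum in IL-33 replicates 1, 2 and 3, against 24.8%, 22.1% and 21.2% in PBS replicates 1, 2 and 3, so that the groups overlapped through IL-33 replicate 1. Per kilobase of main transcript, a choice made after seeing the data, the Rc3h2 share averaged 53.4 ± 13.98% after IL-33 and 38.9 ± 2.47% in PBS (SD, n = 3 each). By that length the ratio of the roquin sums was 1.28 and the groups did not overlap, so the roquin sum depends on the length used.

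Whether paralogs responded differently was tested on the log2 ratio of 2 members within each library, which is nearly independent of how the libraries were scaled. With 3 libraries in each group an exact permutation test cannot go below p = 0.1, and 7 pairs were compared. The ratio of Zc3h12a to Zc3h12c averaged −0.25 ± 0.94 after IL-33 and −1.57 ± 0.31 in PBS, a difference of 1.33 with no overlap between the groups (exact two-sided p = 0.1, the smallest possible, Benjamini-Hochberg adjusted p = 0.233). It was −1.28, −0.03 and 0.57 in IL-33 replicates 1, 2 and 3, against −1.93, −1.40 and −1.39 in PBS replicates 1, 2 and 3. Since the test cannot reach a lower p, a different response of Zc3h12a and Zc3h12c was not shown. Zc3h12a and Zc3h12c each gained on the barely detected Zc3h12d, by 4.82 and 3.50 (log2), with the same p-values from the exact test, but these sizes depend on the added 1.

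For the other pairs the groups overlapped. The ratio of Zfp36 to Zfp36l1 differed by −0.25 (4.52 ± 0.25 after IL-33, 4.77 ± 0.22 in PBS, exact p = 0.2, adjusted p = 0.28). Zfp36 to Zfp36l2 differed by 0.53 (0.64 ± 0.92 after IL-33, 0.11 ± 0.35 in PBS, exact p = 0.6, adjusted p = 0.6). Zfp36l1 to Zfp36l2 differed by 0.78 (−3.88 ± 1.17 after IL-33, −4.66 ± 0.28 in PBS, exact p = 0.4, adjusted p = 0.467). The ratio of Rc3h1 to Rc3h2 differed by −0.86 (0.12 ± 0.83 after IL-33, 0.97 ± 0.15 in PBS, exact p = 0.2, adjusted p = 0.28). A different response of Rc3h1 and Rc3h2 was therefore not shown, although one was called and the other was not. This ratio was 0.97, 0.06 and −0.68 in IL-33 replicates 1, 2 and 3, against 0.81, 1.02 and 1.10 in PBS replicates 1, 2 and 3.

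The smaller changes depended on how the libraries were scaled, because the median log2 fold change of all tested genes was −0.03 as deposited, −0.05 with TMM factors, −0.45 with totals made equal without Rn45s and −1.06 with all totals made equal. Relative to that median, the values had to be nearly the same, because each scaling multiplies all genes of a library by a common factor. They place each gene among all tested genes and are no check of the scaling. Zc3h12a stood 3.81 to 3.82 above that median under these 4 scalings, Zc3h12c 2.48 to 2.50, Zfp36l1 1.07 to 1.08, Zfp36 0.81 to 0.83, Rc3h2 0.79 to 0.80, Arid5a 0.42 to 0.43 and Zfp36l2 0.28 to 0.30. Elavl1 stood 0.26 to 0.27 below it, and Rc3h1 0.06 to 0.07 below it. In absolute terms, with all totals equal, the log2 fold change became −0.25 for Zfp36 and −0.27 for Rc3h2, neither called, 0.02 for Zfp36l1 and −0.64 for Arid5a. With all totals equal, Zfp36l2 was called lower (−0.77, adjusted p = 0.0499, limma) although it lay above that median, and so was Elavl1 (−1.33, adjusted p = 0.0494, limma).

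**Figure D4:**
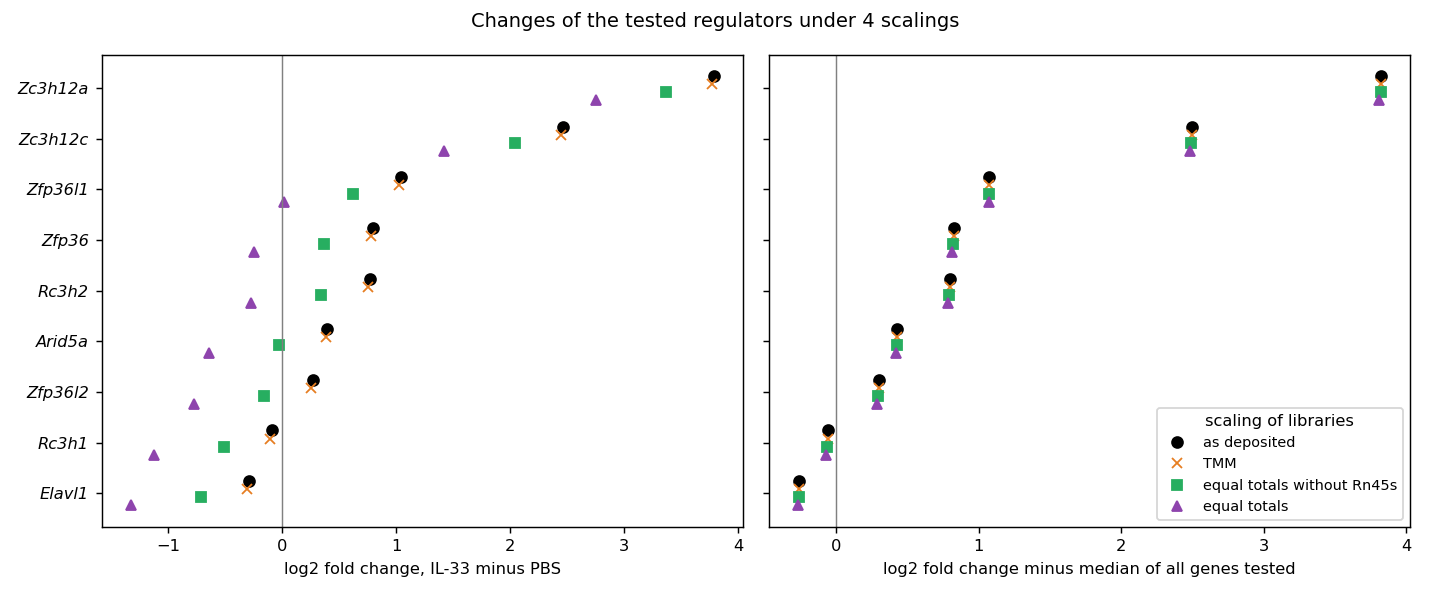
Log2 fold change, IL-33 minus PBS, of the 9 regulators tested under 4 scalings of the libraries (left), and the same after subtraction of the median of all tested genes (right). On the left the points of Zfp36 run between 0.79 and −0.25. On the right they lie within 0.81 to 0.83, as they must, since each scaling moves all genes almost alike.

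Genes whose proteins act on the regulators were also partly higher after IL-33. This list held 18 genes, all tested, of which 7 were higher, 0 lower and 11 not called (median log2 fold change 0.31, against −0.03 over all tested genes, 17.4% of which were higher and 14.4% lower). Ikbke, an IKK-related kinase, had a log2 fold change of 3.08 (SE 0.18) and Mapkapk2, the p38-activated kinase MK2 that phosphorylates tristetraprolin, of 2.98 (SE 0.25). The deubiquitinase gene Usp10 (1.48, SE 0.25) and Mapkapk3, which encodes the related kinase MK3 (1.20, SE 0.16), also rose. Malt1, the protease that cleaves Regnase-1 and roquins in T cells, rose by 0.76 (SE 0.17) with its partner Bcl10 (0.80, SE 0.19), and Eif4e2, the cap-binding partner of tristetraprolin complexes, by 0.79 (SE 0.21). When IL-33 replicate 2 was left out, or PBS replicate 2, or PBS replicate 3, the number higher was 4 each time, without IL-33 replicate 1 it was 9 with 3 lower, and with all totals equal it was 2 with 4 lower.

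Mapkapk2 had 10163, 14107 and 14863 normalized counts in IL-33 replicates 1, 2 and 3, against 2284, 1393 and 1371 in PBS replicates 1, 2 and 3, groups that lie far apart. Not called were Mapk14, which encodes the p38 alpha kinase upstream of MK2 (0.42, SE 0.15, adjusted p = 0.0659, limma), Gigyf1 (0.74, SE 0.26, adjusted p = 0.0598, limma) and Ikbkb and Irak1, kinase genes of the IL-1 receptor pathway (0.19, SE 0.15, and −0.15, SE 0.16).

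Of the genes of other proteins that bind cytokine mRNAs, 17 of 25 passed the filter, and 2 were higher (11.8%) and 3 lower (17.6%), with a median log2 fold change of 0.01. These shares were near the 17.4% and 14.4% of all tested genes. N4bp1, an RNase with the same kind of nuclease domain as Regnase-1, had 1056, 879.7 and 903 normalized counts in IL-33 replicates 1, 2 and 3, against 316, 325 and 352 in PBS replicates 1, 2 and 3. Its groups did not overlap and its log2 fold change was 1.51 (SE 0.16, adjusted p = 0.00073, limma). Celf1, which binds GU-rich elements, rose by 0.65 (SE 0.14), while its paralog Celf2 (−1.29, SE 0.35) and the translational repressor genes Tia1 (−1.41, SE 0.27) and Tial1 (−0.78, SE 0.25) fell. Without PBS replicate 3, 1 gene was higher and 0 lower, without IL-33 replicate 1 the numbers were 4 higher and 7 lower, with the Rn45s share as a covariate they were 2 and 0, and with all totals equal 0 were higher and 8 lower. Zfp36l3 and Elavl2 were at 0 in all libraries.

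Of 59 genes of the general decay machinery in 4 lists, 58 were tested, and 9 were higher (15.5%), 11 lower (18.97%) and 38 not called, with a median log2 fold change of −0.15. These shares were near those of all tested genes, 17.4% higher and 14.4% lower. In the CCR4-NOT list with its adaptors, 3 of 17 genes rose and 3 fell: the adaptor genes Tob2 (1.98, SE 0.23) and Btg1 (1.18, SE 0.20) and the ubiquitin ligase gene Cnot4 (0.68, SE 0.17) were higher, and the subunit genes Cnot2 (−1.31, SE 0.39), Cnot9 (−0.81, SE 0.23) and Cnot3 (−0.69, SE 0.19) were lower. Tob2 had 3807, 5990 and 6164 normalized counts in IL-33 replicates 1, 2 and 3, against 1531, 1322 and 1120 in PBS replicates 1, 2 and 3. Its IL-33 libraries were all above its PBS libraries.

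Of 15 decapping and 5′ to 3′ decay genes tested, 0 rose and 3 fell (20%, against 14.4% of all tested genes): the exonuclease gene Xrn1 (−1.29, SE 0.28), the decapping enzyme gene Dcp2 (−0.98, SE 0.29) and Lsm6 (−0.96, SE 0.29). Of 16 exosome and SKI genes, 3 rose (18.75%, against 17.4% of all tested genes) and 4 fell (25%, against 14.4%). Exosc6 (2.04, SE 0.50), Exosc3 (1.78, SE 0.41) and the helicase gene Skiv2l (0.88, SE 0.26) were higher, and Dis3l (−1.22, SE 0.23), Ttc37 (−1.04, SE 0.28), Exosc8 (−0.96, SE 0.23) and Dis3l2 (−0.88, SE 0.26) were lower. The value of Exosc6 is uncertain, since 100% of its exonic bases overlap Aars, a gene on the same strand, so that reads of the 2 genes cannot be told apart. Among the 10 UPF and SMG genes, Upf1, which encodes the helicase that works with Regnase-1, rose by 0.70 (SE 0.15), as did Smg5 (0.67, SE 0.17), and Upf2 fell by 0.86 (SE 0.24). These calls depended on the libraries used and on the fit. With the Rn45s share as a covariate, 0 genes of the 4 lists were lower, and 2 CCR4-NOT, 0 decapping, 0 exosome and 1 UPF and SMG genes were higher. That fit cannot separate the Rn45s share from IL-33. Leaving out PBS replicate 3, 0 of the decapping, exosome and UPF and SMG genes were called in either direction, and leaving out any library other than IL-33 replicate 1 left 0 CCR4-NOT genes lower. Without IL-33 replicate 1 the numbers lower were 7 CCR4-NOT, 4 decapping, 7 exosome and 2 UPF and SMG genes, and with all totals equal they were 12, 8, 8 and 6, with 1, 0, 1 and 0 higher in the same lists.

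The mRNAs that these regulators are known to bind were mostly higher after IL-33. Leaving out the regulators themselves, 34 target genes were listed from knowledge of other cells, 23 passed the filter, and of these 17 were higher (73.9%) and 0 lower (median log2 fold change 1.27), against 17.4% higher and 14.4% lower of all tested genes. The list was drawn up with earlier results of these data known, so its direction is not independent evidence. By regulator, 8 of 10 tested targets of Regnase-1 were higher (median 2.88), 12 of 14 of tristetraprolin (median 1.63), 7 of 10 of roquins (median 2.47) and 1 of 3 of Arid5a (median 0.06), with many genes on more than one list and some regulators, such as Zc3h12a, among the targets. With all totals equal, the number higher in these lists was 6, 5, 5 and 1, with 1 lower in each, and without PBS replicate 2 the number of higher tristetraprolin targets was 7.

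Il6, degraded through Regnase-1 and protected by Arid5a, had 567, 228 and 103 normalized counts in IL-33 replicates 1, 2 and 3, against 6.99, 12.4 and 9.09 in PBS replicates 1, 2 and 3. Its IL-33 libraries differed widely among themselves and were all far above PBS (log2 fold change 4.54, SE 0.55). Tnf, the target shown above with overlapping nonamers, had 588, 241 and 199.99 in IL-33 replicates 1, 2 and 3, against 76.1, 58.9 and 64.3 in PBS replicates 1, 2 and 3 (2.19, SE 0.38). Both were highest in IL-33 replicate 1, the order seen for Zc3h12c and Zfp36 and the opposite of that for Zc3h12a.

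Cxcl2, a neutrophil chemokine, Nfkbiz, a nuclear partner of NF-kB, and Ptgs2, which encodes cyclooxygenase-2, were also highest in IL-33 replicate 1, at 1144, 2864 and 8203 normalized counts. Their log2 fold changes were 4.06 (SE 0.35), 3.41 (SE 0.29) and 3.31 (SE 0.51). Ier3, an early stress gene, was highest in IL-33 replicate 3, with 534, 587 and 1027 normalized counts in IL-33 replicates 1, 2 and 3, against 137, 90.2 and 85.3 in PBS replicates 1, 2 and 3 (2.74, SE 0.30). Il1b, which encodes the cytokine interleukin-1 beta, had a log2 fold change of 4.39 (SE 0.61). Csf2, a classic target of tristetraprolin with 28.4 ATTTA pentamers per kilobase of 3′ UTR, was under the filter at 8.99, 1.54 and 1.69 in IL-33 replicates 1, 2 and 3, against 0.78, 0 and 2.10 in PBS replicates 1, 2 and 3. Pentamer density was 14.99 per kilobase in Cxcl2, 14.1 in Il6, 10.5 in Tnf and 2.95 in Nfkbiz.

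**Figure D5:**
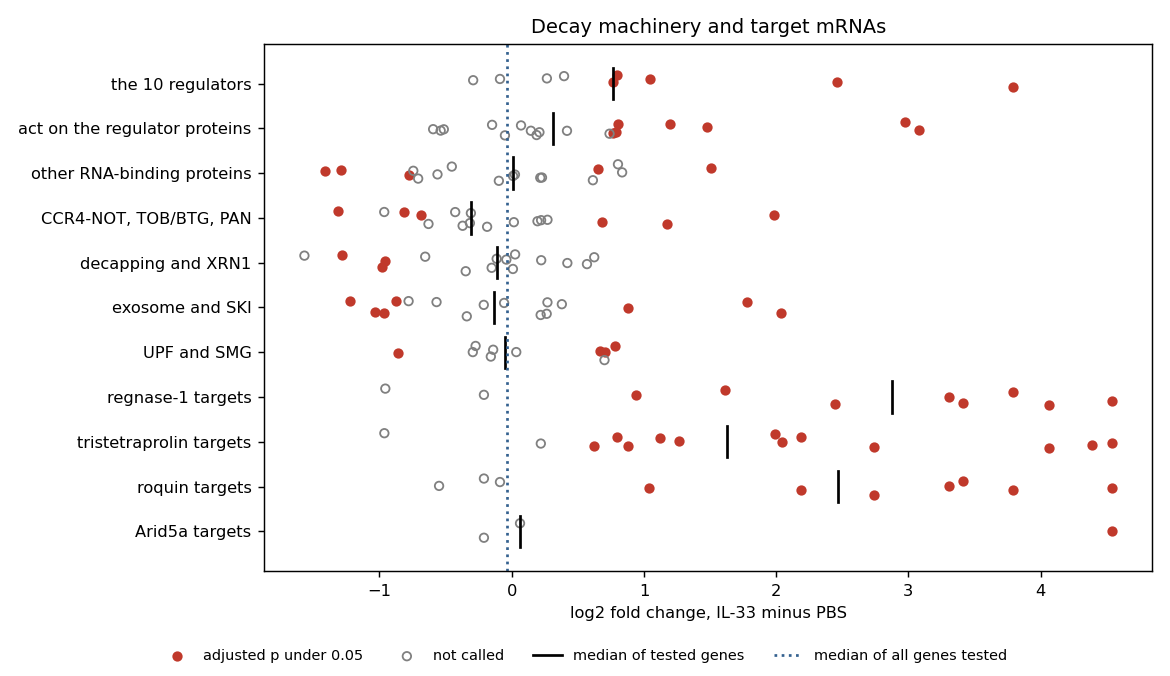
Log2 fold change, IL-33 minus PBS (horizontal axis), of every tested gene of the 10 regulators, of the genes that act on them, of other RNA-binding proteins, of the decay machinery and of the target lists, with filled points for genes at an adjusted p under 0.05, open points for the rest, a black bar at each list's median and a dotted line at the median of all tested genes (−0.03). The medians of the Regnase-1, tristetraprolin and roquin target lists, 2.88, 1.63 and 2.47, lie to the right of those of the decay machinery lists, which lie between −0.31 and −0.05.

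The genes closest to Zc3h12a in pattern, by Euclidean distance over the 6 libraries of the log2 values minus the PBS mean among 7639 genes with a mean of at least 50, were Bcl3 (distance 0.42), Pim1 (0.43) and Icam1 (0.52). Bcl3, a nuclear IkB protein, had 228, 205 and 247 normalized counts in IL-33 replicates 1, 2 and 3, against 17.1, 16.7 and 18.9 in PBS replicates 1, 2 and 3. Closest to Zfp36 were Zfp597 (0.14), Csf1 (0.18), the gene of the macrophage growth factor CSF-1, and Bhlhe40 (0.18), the gene of a transcription factor. Csf1 had 22110 normalized counts in IL-33 replicate 1, 19239 in replicate 2 and 18824 in replicate 3, against 13945, 10149 and 10481 in PBS replicates 1, 2 and 3, so that like Zfp36 it was highest in IL-33 replicate 1 and in PBS replicate 1.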

How the data were processed

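By its name and values, the deposited table holds the authors' normalized counts per gene, a signal with one scaling factor per library. The submitters' processing notes name HISAT2, HTSeq, DESeq2 and the build mm10, while versions, gene annotation and strand setting were not stated in what was available here. Within 0.1 of a read, 100% of the deposited values were whole multiples of what 1 read was worth in that library, so whole reads were recovered and edgeR 4.0.16 and DESeq2 1.42.0 were run on them as alternatives, calling 3388 and 3862 genes.

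The main test was limma 3.58.1 under R 4.3.3, two-sided, with an eBayes trend, applied to all 6 libraries after adding 1 and taking log2, for genes with at least 10 normalized counts in at least 3 libraries. It was checked on simulated counts in which 200 genes were changed. The simulation held no library that stood apart and no error of scaling, so the check does not cover these. Ratios of paralogs were compared by an exact permutation test over libraries. No molecular identifiers are mentioned, so reads may include copies of one molecule.

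Of 23420 symbols, 23012 matched 1 GENCODE M21 gene, 1275 of them through an older symbol, as for Cnot9 (Rqcd1 in the table) and Siglecf (Siglec5). Exonic length is the union of all annotated exons. Promoters are RefSeq windows, found for 9 of the 10 regulators. The regulators and all lists were chosen with earlier results of these data known. From each list of decay, binding, control and target genes, up to 4 called genes per direction with the largest change were named, along with Il6, Tnf, Nfkbiz, Cxcl2, Ier3, Ptgs2 and Csf2, except 1 gene that is not reported here. The rule also covered the marker lists, which are given by counts and sums instead. Malt1, Bcl10, Eif4e2, Mapk14, Gigyf1, Ikbkb, Irak1 and genes at 0 were named after their values were seen.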

Additional observations from a re-analysis of the deposited data

How the results depend on the processing

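With all libraries, 5 regulators were called higher and 0 lower, and 3359 genes were called in all. The number of regulators higher was 2 with totals made equal without Rn45s (Zc3h12a and Zc3h12c) and 1 with all totals equal (Zc3h12a). The number lower was 2 with all totals equal and 1 with IL-33 replicate 1 alone, an alternative chosen after seeing the data, whose counts restate that 1 library stood apart and take it to vary like the PBS libraries. Leaving out 1 library at a time gave 2 to 6 regulators higher, 0 to 2 lower and 1013 to 5860 genes called in all. The 2 lower, Rc3h1 and Elavl1, were called without IL-33 replicate 1. The number of genes called was 1556 with the Rn45s share as a covariate and 5543 with all totals equal. The fit with the Rn45s share cannot separate that share from IL-33 and leans on IL-33 replicate 1. With all totals equal the log2 fold change changed sign for Zfp36 (−0.25), Rc3h2 (−0.27), Zfp36l2 (−0.77) and Arid5a (−0.64), and with totals equal without Rn45s for Zfp36l2 (−0.16) and Arid5a (−0.027). With the Rn45s share as a covariate it did so for Zfp36l2 (−0.38), Rc3h1 (0.61) and Elavl1 (0.38), with IL-33 replicate 1 alone for Zfp36l2 (−0.41), Rc3h1 (0.59) and Elavl1 (0.31), and by DESeq2 for Rc3h1 (0.0065). Leaving out single libraries gave −0.084 to 0.61 for Zfp36l2 and −0.43 to 0.18 for Rc3h1. Apart from the scaling itself, the cause of these differences was not tested. Other pseudocounts and filters, TMM, no trend, edgeR and DESeq2 each gave 5 higher and 0 lower. No paired design is stated: deviations of same-numbered libraries correlated at 0.05, 0.24 and −0.16, and IL-33 replicate 1 correlated best with PBS replicate 3 (0.24), so the numbers were not taken to pair the libraries, and a replicate block gave 5 higher, 0 lower and 2918 genes called in all. With a sum of 7 reads after IL-33 and 29 in PBS, depth limits any statement on Zc3h12d. The values relative to the median of all genes were computed after the data were seen.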
